A study of Marchantia polymorpha with 6 samples.

Results

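Miniature inverted-repeat transposable elements (MITEs) of the Mutator type on the 8 autosomes of the liverwort Marchantia polymorpha are described here. They were taken as every copy of the deposited element annotation that carries the class MITE and the superfamily code DTM on chromosomes 1 to 8. This gave 1644 copies of 89262 annotated element copies in all. The series sequenced RNA from thalli, the flattened haploid body of this plant, which had grown for 14 days on half-strength Gamborg’s B5 agar in continuous white light. Male wild-type Tak-1 gave 3 libraries, and Mpmet-3, by its name an allele of MpMET, gave the other 3. MpMET is the liverwort member of the MET1 family, which keeps up CG methylation when DNA is copied. Both deposited files were annotations of the Tak-1 genome (MpTak1 v5.1 revision 2) with no value of any library. Expression, library depth and any effect of the mutation were therefore not analysed here, and the values below are positions and lengths. The units of comparison are the chromosomes of 1 annotated genome, and the p-values carry no information on differences among individuals.

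Mutator elements are DNA transposons that are cut out and reinserted by a transposase acting on the inverted repeats at their ends. MITEs are short relatives that keep such ends but code for no protein, and they move only when a transposase from a longer relative acts on them. In plants, transposons are usually held silent by DNA methylation, and MITEs are known for lying close to genes in many species. EDTA, the pipeline named in the element annotation, finds some elements by their structure, builds a library of families from them, and then searches the genome for further copies by similarity. Identifiers beginning TE_struc were read as structure-based copies and those beginning TE_homo as homology-based copies.

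The 1644 copies summed to 356943 bp. Chromosome 8 had the fewest copies with 138, the median chromosome had 216, and chromosome 1 had the most with 240. Per unit of length the chromosomes held 7.92 ± 1.13 copies per Mb (SD, n = 8), from 6.47 on chromosome 8 to 9.72 on chromosome 6. The copies covered 0.168% ± 0.0258 of a chromosome (SD, n = 8). For scale, the same chromosomes held 7748 copies of Mutator elements not labelled MITE (DTM), 23.0% of them over 600 bp. They also held 1156 copies of the MITEs related to the hAT superfamily (MITE/DTA).

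The copies were short, with a median of 178 bp and a range of 80 to 818 bp. Of all copies, 226 (13.7%) were under 100 bp and 1027 (62.5%) under 200 bp. Only 6 copies were longer than 600 bp, 5 of them between 603 and 616 bp in the family TE_00000620 and 1 of 818 bp in TE_00001026. No structure-based copy was longer than 600 bp, while all 268 structure-based DTM copies were longer than that. The labels MITE/DTM and DTM therefore part exactly at 600 bp among structure-based copies, so a difference in length between them is in part set by the label.

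Structure-based copies were longer than those found by similarity. Their median was 363 bp against 177 bp for the 1500 homology-based copies, and they made up 8.76% of the copies and 14.9% of the summed bp. By chromosome the structure-based median ranged from 283 to 450.5 bp, and the homology-based median from 160.5 to 178 bp, without overlap. The difference was 196 ± 45.4 bp (SD, n = 8) and exceeded 0 on all 8 chromosomes (2-sided exact permutation by sign flips, adjusted p = 0.0172 over 22 tests). In 59 of the 63 families that had both kinds, the homology-based median was below the structure-based one. Of the 1171 homology-based copies in these families, 195 (16.7%) reached at least 90% of the structure-based median length. Homology-based copies were found with a library built from structure-based ones, so the 2 lengths are not independent. How far the method set the difference between them was not tested. No structure-based copy carried a strand, and every homology-based copy did (759 plus, 741 minus).

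**Figure D1:**
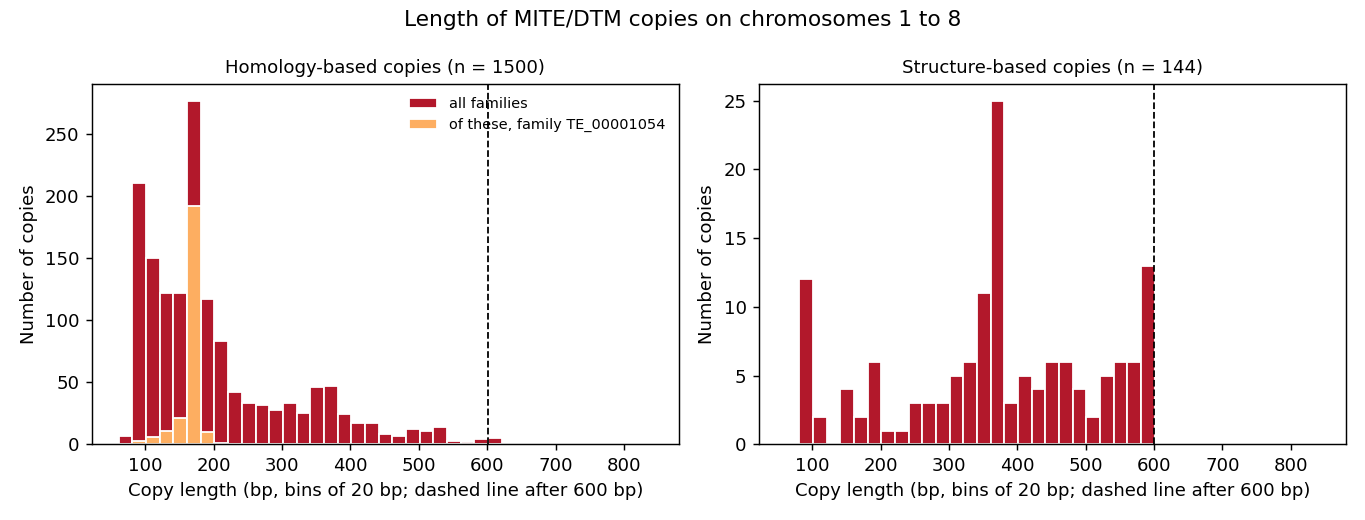
Number of copies (vertical axes, separate scales) by length in bins of 20 bp, for homology-based (left) and structure-based copies (right). The dashed line follows 600 bp, and the orange bars are the family TE_00001054, whose commonest length is 178 bp. Homology-based copies crowd below 200 bp, and no structure-based copy lies beyond the line.

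Against their relatives the copies were short as well. The mean of the chromosome medians was 176 ± 4.63 bp, against 240 ± 12.7 bp for DTM and 214 ± 16.8 bp for MITE/DTA (SD, n = 8 each). The difference was −63.4 ± 15.3 bp to DTM and −37.1 ± 18.4 bp to MITE/DTA, and it was below 0 on 8 of 8 chromosomes in both cases (exact permutation, adjusted p = 0.0172 each). When both groups were held to copies of at most 600 bp, the difference to DTM was −5.94 bp (exact permutation, adjusted p = 0.195). Among copies of at least 200 bp, the MITE/DTM copies were longer than those of MITE/DTA, by 63.0 bp (exact permutation, adjusted p = 0.0172). This cut acts on length itself and left out 62.5% of MITE/DTM but 45.2% of MITE/DTA copies. The value therefore compares only the longer copies of each group.

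A few families supplied most of the copies. There were 89 family labels for 1604 copies, and the other 40 copies, all structure-based, were named by their position alone. The median family had 8 copies, 20 families had 1, and 36 had at least 10. None of the labels was also used for another superfamily. The 3 largest families, TE_00001054 with 244 copies, TE_00000944 with 179 and TE_00001021 with 170, held 36.1% of the copies, and the 10 largest held 53.5%. The largest family after these 3 was TE_00001101 with 46 copies. Each of the 10 occurred on all 8 autosomes, as did 17 families in all.

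The families differed in how uniform their copies were. In TE_00001054, 177 of 244 copies (72.5%) were within 10 bp of its commonest length of 178 bp, and none was found by structure. TE_00000944 had a commonest length of 194 bp, shared by 41 copies, but its only structure-based copy was 571 bp long, and none of its 178 homology-based copies reached 90% of that. TE_00001021 spread from 83 to 475 bp with a median of 322 bp. Its 4 structure-based copies were 392 to 440 bp long, and 51 of its 166 homology-based copies (30.7%) reached 90% of their median. TE_00000610 was the longest of the 10 by median, at 431.5 bp, and had 4 structure-based copies of 486 to 531 bp. TE_00000620 had 42 copies with a median of 313.5 bp, and TE_00001101 had 46 with 218.5 bp. The medians of TE_00000689, TE_00000960, TE_00000527 and TE_00000778 lay between 141 and 199 bp. Most structure-based copies stood alone in their family: 75 families had 1, and TE_00001001, with 7 structure-based copies of 85 to 87 bp and no other copy, had the most. TE_00000719 had 3.

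**Figure D2:**
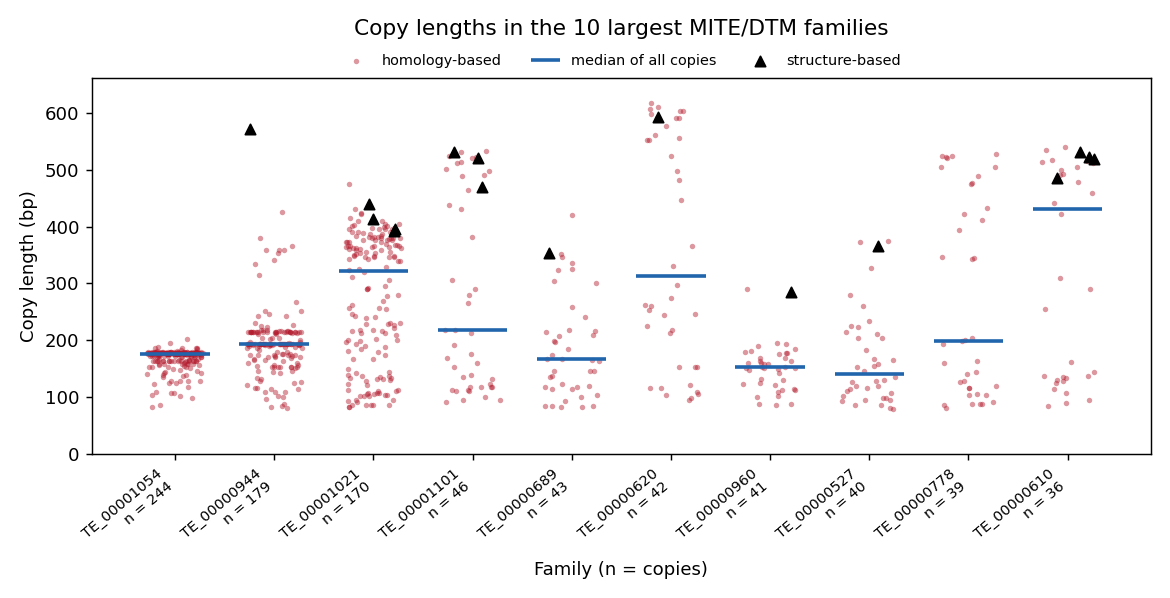
Length of every copy (vertical axis, bp) in the 10 families with most copies, with homology-based copies as points, structure-based ones as triangles and the median of all copies as a line. TE_00001054 forms a single narrow band near 178 bp, while TE_00001021 runs from 83 to 475 bp.

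Most copies lay outside genes. Of the 1644 copies, 61 (3.71%) touched an exon and a further 87 (5.29%) lay in a gene without touching an exon. Exons and introns make up 20.4% and 12.8% of the bases of the 8 chromosomes. Within 1 kb of a gene lay 300 copies, 115 with a gene start as the nearest boundary and 185 (11.3%) with a gene end. Bases whose nearest boundary is a start make up 7.16% of the chromosomes in that zone, and those nearest an end 6.84%. A further 656 copies (39.9%) were 1 to 5 kb from a gene, and 540 (32.8%) were farther away. The median copy that touched no gene was 3151 bp from the nearest one. This gap was 2308 bp for structure-based copies and 3272 bp for homology-based ones. Of structure-based copies 10.4% touched an exon, against 3.07% of homology-based ones. These differences between the kinds were not tested.

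Cover, the percentage of bases that lie in a copy, was lowest beside the gene boundaries and highest some way off. At gene starts it was 0.0554% ± 0.0373 in the nearest 250 bp, 0.140% ± 0.0671 from there to 500 bp, and 0.251% ± 0.101 between 500 and 1000 bp (SD, n = 8). At gene ends the same steps gave 0.114% ± 0.0408, 0.229% ± 0.0735 and 0.385% ± 0.106. The step from 500 to 1000 bp beyond gene ends had the highest cover of all distance steps on either side. Over all bases outside genes the cover was 0.228% ± 0.0330, in introns 0.0752% ± 0.0325 and in exons 0.0266% ± 0.0137. DTM had a profile of a like shape, also lowest in the nearest 250 bp (1.04% at starts, 1.23% at ends), with its highest cover between 3 and 5 kb (2.65% and 2.95%) and less beyond. The summed cover of all elements outside MITE/DTM, DTM and MITE/DTA included, rose with distance throughout, from 5.02% to 80.1% at starts and from 5.03% to 83.3% at ends.

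**Figure D3:**
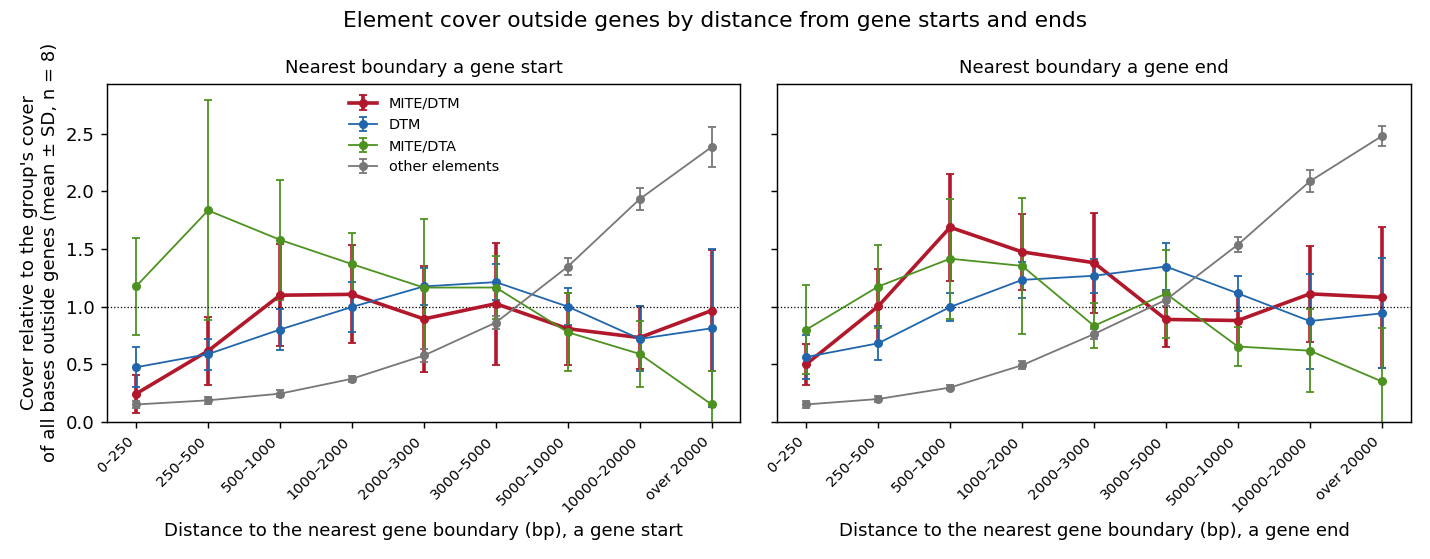
Cover in steps of distance (horizontal axes, bp) from the nearest gene start (left) or gene end (right), divided by the group's own cover of all bases outside genes (mean ± SD over 8 chromosomes). The red line of MITE/DTM is lowest in the nearest 250 bp and peaks between 500 and 1000 bp from gene ends, while the grey line of all other elements climbs throughout.

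The zone within 1 kb held more of these MITEs at gene ends than at gene starts. By count this was seen among homology-based copies, with 99 at starts and 170 at ends. Structure-based copies numbered 16 at starts and 15 at ends, and no run tested them alone. In the 0 to 1 kb from ends the cover was lowest on chromosome 6 with 0.195% and highest on chromosome 8 with 0.367%, with a mean of 0.265% ± 0.0621 (SD, n = 8). From starts it was lowest on chromosome 7 with 0.0992% and highest on chromosome 6 with 0.286%, with a mean of 0.167% ± 0.0631 (SD, n = 8). The start zone was lower than the end zone on 7 of 8 chromosomes, chromosome 6 being the exception. The mean log2 ratio of start to end was −0.72 ± 0.59, a ratio of 0.607 (exact permutation, adjusted p = 0.0430). With 1 chromosome left out the log2 ratio stayed between −0.90 and −0.62. The adjusted exact permutation p was then between 0.0573 and 0.0859, except without chromosome 6, where it was 0.0264. Every alternative run kept the direction, but the test was also missed with coding genes only, with gene spans taken from coding parts, with copies of at least 100 or 200 bp, without copies that overlap another superfamily, and without the 3 largest families.

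Set against bases over 5 kb from any gene, neither side passed the test with all families together. The far bases had a cover of 0.204% ± 0.0398 (SD, n = 8). The log2 ratio of near to far cover was −0.35 ± 0.47 at starts, below 0 on 6 of 8 chromosomes (exact permutation, adjusted p = 0.149). At ends it was 0.36 ± 0.51, above 0 on 7 of 8 (exact permutation, adjusted p = 0.145). In a near zone of 500 bp the ratio at starts was −1.23 and passed (exact permutation, adjusted p = 0.0143). At ends the direction depended on the zone and on what counts as a gene. The ratio there was 0.54 in a near zone of 2 kb (exact permutation, adjusted p = 0.0156) and −0.31 in one of 500 bp (exact permutation, adjusted p = 0.150). With genes taken as the span of their coding parts it was −1.05 (exact permutation, adjusted p = 0.0156). Without the 3 largest families, which were set aside after their places had been seen, the log2 ratio was 0.61 at starts (exact permutation, adjusted p = 0.192) and 1.31 at ends (exact permutation, adjusted p = 0.0143). The far cover was then 0.0818% ± 0.0218 and the cover near ends 0.198% ± 0.0333 (SD, n = 8). Of these families, TE_00001054 and TE_00000944 lie mostly over 5 kb from genes. Leaving out such families lowers the far cover most, so the pass at ends is no independent support.

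Near gene starts the group was sparser, relative to its far cover, than MITE/DTA. Its log2 ratio at starts was lower than that of MITE/DTA on 8 of 8 chromosomes, by −1.70 ± 0.71 (exact permutation, adjusted p = 0.0172). MITE/DTA itself had 1.34 ± 0.50 there. This difference was smaller and did not pass under 3 settings. It was −0.93 among copies of at least 200 bp (exact permutation, adjusted p = 0.147), −0.99 without copies that overlap another superfamily (exact permutation, adjusted p = 0.0529) and −0.74 without the 3 largest families (exact permutation, adjusted p = 0.126). The overlap setting left out copies of MITE/DTM only, and the 3 families had been chosen after their places were seen. At ends the difference to MITE/DTA was −0.61 ± 1.03, with 5 of 8 chromosomes below 0 (exact permutation, adjusted p = 0.161). Against DTM the difference at starts was 0.19 ± 0.52, above 0 on 5 of 8 (exact permutation, adjusted p = 0.455). At ends it was 0.62 ± 0.59, above 0 on 7 of 8 (exact permutation, adjusted p = 0.0430). With 1 chromosome left out this last difference stayed between 0.53 and 0.76, but its adjusted exact permutation p was from 0.0573 to 0.0859 unless chromosome 6 was the one left out. With copies of at most 600 bp in both groups the difference was 0.30 (exact permutation, adjusted p = 0.322). Against all other elements together the ratio was higher on 8 of 8 chromosomes, by 2.80 ± 0.39 at starts and 3.34 ± 0.54 at ends (exact permutation, adjusted p = 0.0172 each). Those elements covered 56.0% to 65.9% of the far bases and 5.09% to 8.24% of the near bases at starts, over the 8 chromosomes.

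**Figure D4:**
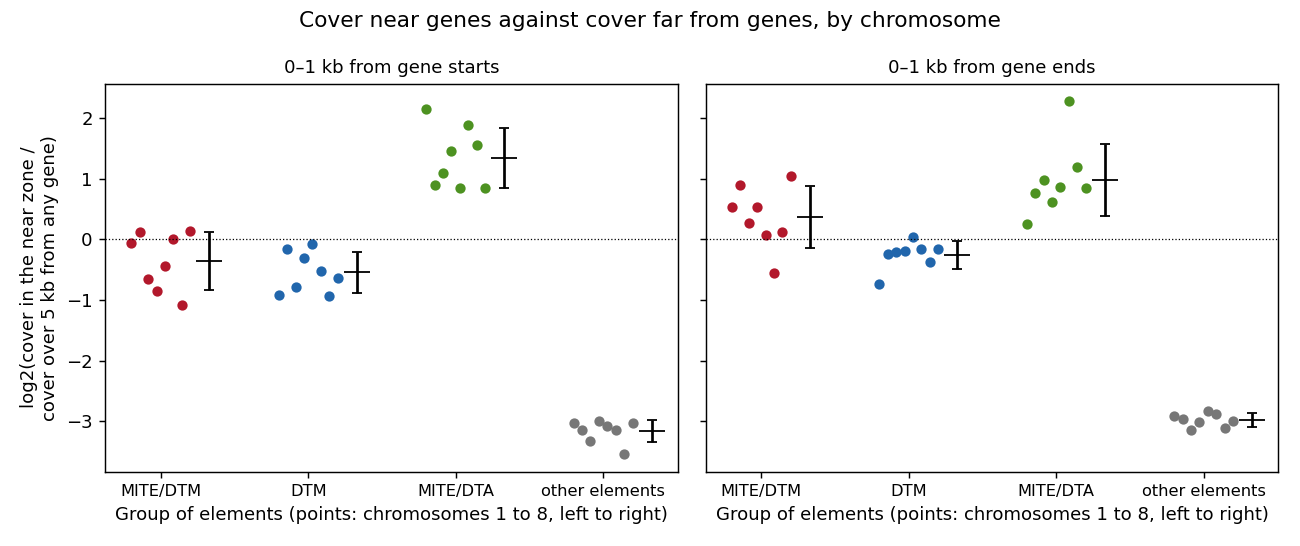
log2 ratio of cover 0 to 1 kb from gene starts (left) or ends (right) to cover over 5 kb from any gene, with 1 point per chromosome and the mean ± SD (n = 8) beside it. MITE/DTM points run from −1.09 to 0.14 on the left and from −0.56 to 1.04 on the right, MITE/DTA points lie above 0, and all other elements lie near −3.

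By distances of whole copies, too, MITE/DTA lay nearest to genes and all other elements farthest. They did not part MITE/DTM from DTM. The median gap between a copy and the nearest gene, averaged over chromosomes, was 3198 ± 535 bp for MITE/DTM, 3150 ± 412 bp for DTM, 2115 ± 302 bp for MITE/DTA and 5719 ± 691 bp for all other elements (SD, n = 8 each). MITE/DTM copies lay 1083 ± 567 bp farther out than those of MITE/DTA and 2521 ± 457 bp nearer than other elements, on 8 of 8 chromosomes each (exact permutation, adjusted p = 0.0172 each). The difference to DTM was 48.5 ± 603 bp (exact permutation, adjusted p = 0.954). The difference to all other elements kept its direction and passed in every alternative run, while those to DTM and MITE/DTA did not. TE_00001054, with a median gap of 11838 bp, was left out after its gaps had been seen. The difference to DTM was then −732 bp, MITE/DTM being nearer to genes (exact permutation, adjusted p = 0.0172). The difference to MITE/DTA was then 302 bp (exact permutation, adjusted p = 0.129). Leaving out a family chosen as far from genes brings the group nearer, so these p-values are no independent support. Among copies of at least 200 bp the differences to DTM and MITE/DTA were −1050 and 211 bp. Without copies that overlap another superfamily they were −904 and 130 bp. That setting left out copies of MITE/DTM only, while the compared groups kept theirs. Other elements cover far more of the bases far from genes than of those near them. The filter can thus by itself bring the group nearer to genes, and these values are no independent support.

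Families fell far apart in their distance from genes, a comparison given as a description. Bases over 5 kb from any gene make up 24.9% of the chromosomes. TE_00001054 had 194 of its 244 copies (79.5%) over 5 kb from any gene and 4 within 1 kb, and its median gap was 11838 bp. TE_00000944 had 130 of 179 copies (72.6%) over 5 kb away, 5 within 1 kb and a median gap of 8198 bp. No copy of either touched a gene. TE_00001021, the third by size, had 19 of 170 copies (11.2%) over 5 kb away and 55 (32.4%) within 1 kb, 22 at starts and 33 at ends. The other 7 of the 10 largest had median gaps of 1160 to 2706.5 bp. TE_00000610 had the largest difference in count of these, with 1 copy within 1 kb of a start and 11 within 1 kb of an end. TE_00000960 had 0 copies within 1 kb of a start and 5 within 1 kb of an end. TE_00000689 had 7 and 8 copies, and TE_00001101 had 9 and 8. Over all families outside the 3 largest, 91 of 1051 copies (8.66%) were within 1 kb of a start and 145 (13.8%) within 1 kb of an end.

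**Figure D5:**
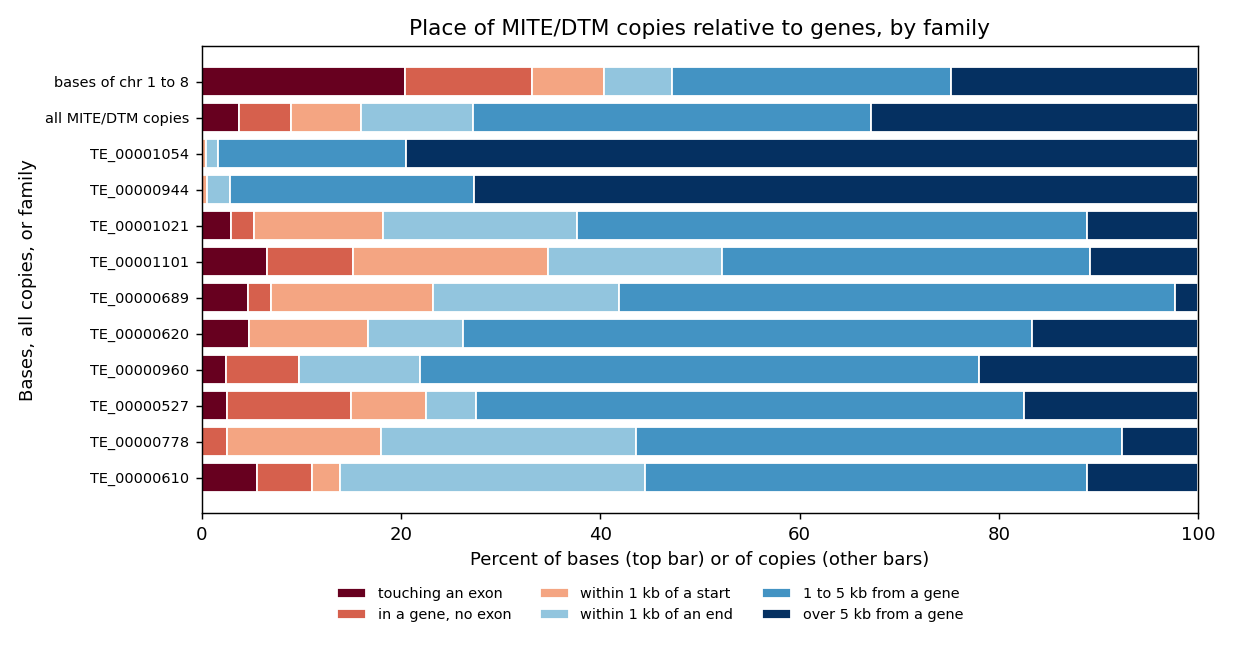
Share of copies in 6 kinds of place (colours) for all MITE/DTM copies and for the 10 largest families, with the share of bases in each kind in the top bar. TE_00001054 and TE_00000944 lie mostly over 5 kb from genes (79.5% and 72.6%), and TE_00001021 has 11.2% there.

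The largest family was annotated in a repeated arrangement with LTR retrotransposons. Of the 244 copies of TE_00001054, 239 shared bases with a copy of another superfamily, by a median of 158 bp, and 238 overlapped or abutted an LTR element. Read along the strand of the copy, 153 copies had the inner part of the Gypsy family TE_00000862 before them on the same strand. The inner part of the Copia family TE_00000812 stood there, on the same strand, for 119. After the copy, on the opposite strand, came terminal repeats of LTR families, TE_00000537 for 73 copies, TE_00001107 for 66 and TE_00001068 for 46. Sharing of bases with another superfamily was also frequent in TE_00000944, with 110 of 179 copies (61.5%). It was seen in 35 of 170 copies of TE_00001021 (20.6%) and in 230 of 1051 copies outside the 3 largest families (21.9%). Different labels within the element annotation thus claim the same bases for most copies of TE_00001054. Which label holds was not tested, since no sequence was used here.

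Over the whole group, 614 copies (37.3%) shared bases with a copy of another superfamily, and 421 shared at least 50% of their length. This concerned 610 of 1500 homology-based copies (40.7%) and 4 structure-based ones (2.78%). Copies labelled DTM, with a median length of 240 bp, were the nearest other element for 408 copies (24.8%), with 7748 copies on these chromosomes. The CACTA type of DNA transposon (DTC), with 3700 copies, was nearest for 224 (13.6%). Elements of unknown class and LTR elements of unknown type were nearest for 257 each, and Gypsy elements, the most numerous with 24205 copies, for 219 (13.3%).

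Neighbouring copies were often of the same family. Of 1636 neighbouring pairs, 324 lay within 1 kb of each other, and 190 of these (58.6%) shared the family, against 207 of the 1312 wider pairs (15.8%). TE_00000944 supplied 72 of the 190. Runs of at least 3 copies of a family with gaps of at most 1 kb numbered 31 and held 126 copies, 60 of them TE_00000944. The longest run, on chromosome 6 from 11594472 to 11598624, had 22 copies of TE_00000944, all on the plus strand. Their starts were a median of 165 bp apart, with both quartiles at 165 bp, and their median length was 194 bp, so that neighbours overlapped. A regular step of this kind is a tandem array in the annotation. Next in size was a run of 6 copies of the same family on chromosome 1, from 19307668 to 19309120.

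Inside genes, MITE/DTM bases were rarer in exons than those of DTM. Exons held 3.12% ± 1.48 of the group's bases, against 7.26% ± 1.94 for DTM (SD, n = 8 each), a difference of −4.14 ± 2.29 percentage points on 8 of 8 chromosomes (exact permutation, adjusted p = 0.0172). With copies of at most 600 bp in both groups it was −2.36 (exact permutation, adjusted p = 0.0716). The exon share of MITE/DTA was 2.78% ± 1.33 and that of all other elements 3.09% ± 0.650, and neither difference passed (exact permutation, adjusted p = 0.793 and 0.969). Introns held 5.67% ± 2.41, which was above the 2.02% ± 0.311 of all other elements on 8 of 8 chromosomes (exact permutation, adjusted p = 0.0172). The intron share was 4.17% ± 0.853 for DTM and 5.39% ± 1.74 for MITE/DTA (exact permutation, adjusted p = 0.147 and 0.954). A single family, TE_00000794, held 7686 of the 19936 intronic bp (38.6%). Without it, a setting chosen after seeing the data, the difference in intron share was 1.45 percentage points to all other elements (exact permutation, adjusted p = 0.0172). It was then −0.703 points to DTM (exact permutation, adjusted p = 0.253) and −1.92 points to MITE/DTA (exact permutation, adjusted p = 0.0313). All copies of TE_00000794 lie in introns, so leaving it out could only lower the group's intron share. The pass against MITE/DTA is therefore no independent support. Of the 11632 exonic bp, 5253 (45.2%) were coding, 4268 (36.7%) lay in 3′ untranslated exons, 1997 (17.2%) in 5′ untranslated exons and 114 in a gene without a coding sequence. In MITE/DTA the coding part was 270 bp, and the 3′ untranslated part 75.6%. Few loci made up much of the coding part of MITE/DTM. The single gene Mp6g02790 held 1308 of its bp. Copies of TE_00001113 gave 128 to 223 coding bp in each of 8 genes within 91.0 kb of chromosome 2. Whether that label names an element was not tested.

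Few genes were involved. Of 19105 autosomal genes, 359 (1.88%) had at least 1 bp of MITE/DTM in an exon, an intron or within 1 kb on either side. There were 54 genes with exonic sequence, 24 of them in coding parts, and 62 with intronic sequence. The 1 kb before the start held some in 107 genes (0.560%) and the 1 kb after the end in 170 (0.890%). Only 3 genes had it on both sides.

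The gene with most exonic sequence was Mp6g02790 (chromosome 6, 3275045 to 3292439, minus strand), in which 2 copies of TE_00001026 of 818 and 490 bp filled 1308 of 7209 coding bp (18.1%). The 818 bp copy is the longest of all. Mp1g06970 (chromosome 1, 7299300 to 7300910, minus strand) held a structure-based copy, from 7299953 to 7300534, that made up 36.1% of its coding sequence. In Mp1g25310 a structure-based copy of TE_00001098 of 568 bp gave 449 coding bp. In Mp6g08370 a copy of TE_00000586 gave 323 of 600 coding bp. Untranslated exons held the copies in Mp7g04720, with 581 bp on the 5′ side, and in Mp1g16580, Mp4g16270, Mp1g01900 and Mp5g02110, with 325 to 434 bp on the 3′ side. Mp5g02110 shares its locus number and length with MpGH19.10, named for a family of glycoside hydrolases that includes chitinases. The remaining gene of these 10, Mp2g01720, is described with its family below.

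Before gene starts the longest stretch belonged to Mp1g11060 (chromosome 1, 11330925 to 11335930, plus strand), matched by number and length to MpHAT2. It had 619 bp of 3 families, TE_00001021, TE_00000558 and TE_00000689, the nearest 72 bp from the start. Mp2g24030 had a single copy of TE_00000620 of 616 bp, 345 bp from its start. Mp1g18180 and Mp7g07480 both had a copy of TE_00000492 beside one of TE_00000719, over 588 and 527 bp. Mp6g04160 and Mp8g00250 both had TE_00001021 beside TE_00001182, over 504 and 502 bp, so the same pairs of families recurred on different chromosomes. Mp2g14800, Mp6g07140, Mp4g05500 and Mp6g16650 had 494 to 527 bp each.

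Of 8 matched genes of DNA methylation, 1 had any of this sequence in the gene or within 1 kb: MpDRMa (Mp1g00340, chromosome 1, 466858 to 475520, minus strand), matched by number and length and named for a methyltransferase of the domains-rearranged type. Its copy, 88 bp of TE_00001151 (chromosome 1, 476478 to 476565), began 957 bp before the start and so gave 43 bp within 1 kb. MpMET, MpCMTa, MpCMTb, MpDRMb, MpDNMT3a, MpDNMT3b and MpDDM1 had none in the gene or within 1 kb. None of 10 matched genes of small RNA pathways and none of 4 matched genes of the male germ line, listed as markers of other cells that thalli of males may include, had any. The share over all autosomal genes was 1.88%, at which a list of this size would hold few or none.

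Among families of at least 10 copies, a pair, singled out after their values were seen, had all or most of their copies in genes. Smaller families did so too. All 9 copies of TE_00000813 and all 7 of TE_00001121 lay in introns, and all 6 of TE_00000768 touched an exon. All 25 copies of TE_00000794 lay in introns, in 11 coding genes on 6 chromosomes, and all 25 were on the strand opposite to the gene. Their lengths ran from 116 to 484 bp around a median of 304 bp, and no copy was found by structure. Of the 25 copies, 18 overlapped or abutted the inner part of the Copia family TE_00000731, and whether the label names a MITE was not tested. Single genes held up to 4 copies within the same intron, as Mp3g07480 did (chromosome 3, 7239100 to 7246846, plus strand) in an intron of 1678 bp. The introns were 932 to 4596 bp long, and 21 of the copies lay between coding parts. Among the genes were Mp7g09640, matched to MpPP2C_KAPP of the type 2C protein phosphatases, and Mp3g15890, matched to MpBromo9, named for the bromodomain that binds acetylated histones. Among the other intronic copies with a stated strand, 34 of 54 (63.0%) lay on the strand of the gene.

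TE_00001113 was the only family of at least 10 copies confined to 1 chromosome. Its 11 copies lay within 91.0 kb of chromosome 2, from 1978092 to 2069119, and 8 of them touched an exon of 8 different coding genes. In 7 of these genes, Mp2g01720, Mp2g01740, Mp2g01750, Mp2g01760, Mp2g01790, Mp2g01800 and Mp2g01820, a copy of 434 to 445 bp gave 220 or 223 of 351 or 354 coding bp. The genes lay on both strands, and each of the 7 copies with a stated strand was opposite to its gene. Whether the label names an element or a stretch shared by a run of similar genes was not tested, since no sequence was used here.

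Beside genes the strand of the copies was split about evenly. Within 1 kb of a gene, 135 of 269 copies with a stated strand (50.2%) had the strand of that gene, 54 of 99 at starts and 81 of 170 at ends. Over chromosomes the share departed from 50% by 0.105 ± 7.69 percentage points (SD, n = 8; exact permutation, adjusted p = 0.969).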

How the data were processed

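Poly(A) RNA of thalli was made into directional libraries, per the labels' protocols. Trim Galore and STAR are named, with no version, per the submitters' processing notes. No deposited file held library values, so depth is unknown. The deposited values used are positions in bp, counted from 1, in an element annotation whose source column names EDTA and in a gene annotation, both named for MpTak1 v5.1 revision 2, per the file headers and names. For EDTA, neither a version nor its parameters appear in the labels or headers.

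A gene was the span of its exons. A base outside genes took the distance and kind (start or end) of its nearest gene boundary, and a chromosome ended at its last feature. Overlapping copies were merged before cover was measured. Comparisons were paired by chromosome and tested by exact 2-sided sign-flip permutation over 8 autosomes (smallest possible p 0.00781), adjusted by Benjamini and Hochberg over 22 tests at 0.05. The measures were tested on simulated chromosomes. Members, lists and tests were chosen with earlier results of these data known.

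Families to be named were the 10 with most copies and the 5 with most structure-based copies. Genes were the 10 with most exonic bp, the 10 with most bp before the start, and list members with a copy in or within 1 kb. Of the lists, that of the male germ line had 4 of 6 symbols matched, that of small RNA pathways 10 of 13 and that of DNA methylation 8 of 9. Symbols came from a table of the female assembly MpTak2 v7.1, paired by locus number for 17624 genes. Of these 16479 agreed within 5% in length, and 2860 genes received a symbol. Alternatives were other gene sets, zones and copy sets, and each chromosome left out. Computation used pandas 2.3.3 and numpy 2.4.6 under Python 3.11.15, and plots matplotlib 3.10.9.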

Additional observations from a re-analysis of the deposited data

Results flagged for a closer look

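Over 25 measures, each with 1 value per autosome, 4 had a chromosome that stood apart by Dixon's criterion for 8 values, which compares the gap to the nearest value with the whole range and which chance meets in about 1 of 20 groups. On chromosome 6 the log2 ratio of cover near starts to cover near ends was 0.55, against −1.40 to −0.51 on the others. On the same chromosome the near-to-far ratio at ends fell below that of MITE/DTA by −2.83 on the log2 scale, against −1.07 to 0.29 on the others. The ratio there was −0.56 for MITE/DTM, the lowest of its chromosomes, and 2.28 for MITE/DTA, the highest of its own. On chromosome 3 the intron share of MITE/DTM exceeded that of MITE/DTA by 7.61 percentage points, against −2.62 to 1.52. The share there was 9.90% for MITE/DTM, the highest of its chromosomes, and 2.29% for MITE/DTA, the lowest of its own. The family TE_00000794, all of whose copies lie in introns, had 2751 of the 35648 MITE/DTM bp of that chromosome. On chromosome 5, 13.4% of copies were structure-based, against 7.46% to 9.42%.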

How the results depend on the processing

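No paired analysis was possible because neither file holds a value of a library; all tests pair groups by chromosome. Of 445 recomputed values, 352 kept both direction and side of the threshold. Some of these could not have changed, since exon and intron shares, lengths and gaps do not use the near and far zones. Exon share minus DTM, for instance, was −4.14 under every zone setting, as in the main run. The count is therefore no measure of robustness. "Start" and "end" below are the log2 near-to-far ratios there. With coding genes only, end minus DTM was 0.72 (exact permutation, adjusted p = 0.0625), start against end −0.69 (exact permutation, adjusted p = 0.0716) and the departure of the same-strand share from 50% was −0.576 percentage points. With spans of coding parts in place of exons, start was −1.85 and end −1.05 (exact permutation, adjusted p = 0.0156 each), start minus DTM −0.75, end minus DTM 0.23, start against end −0.80, exon share minus MITE/DTA 1.21 and minus other elements −0.529, and the same-strand departure −7.07; untranslated exons then count as outside genes. With a near zone of 500 bp, start was −1.23, end −0.31, start minus DTM −0.37, end minus DTM 0.32 and the same-strand departure −7.98. With 2 kb, end was 0.54 and the same-strand departure −2.59. With a far zone over 10 kb, start minus DTM was −0.16, end minus DTM 0.28 and end minus MITE/DTA −1.18. With copies of at least 100 bp, end minus DTM was 0.62 (exact permutation, adjusted p = 0.0859), start against end −0.73 (exact permutation, adjusted p = 0.0625) and the same-strand departure −1.98. With at least 200 bp, start was 0.57, end 1.11, start minus DTM 1.15, start minus MITE/DTA −0.93, end minus MITE/DTA 0.053, start against end −0.55, median gap minus DTM −1050 bp and minus MITE/DTA 211 bp, and median length minus MITE/DTA 63.0 bp. With homology-based copies only, exon share minus MITE/DTA was −0.113 and minus other elements −0.341. Without copies that overlap another superfamily, start was 0.35, end 1.07, start minus DTM 0.89, start minus MITE/DTA −0.99, end minus MITE/DTA 0.10, start against end −0.72 (exact permutation, adjusted p = 0.135), intron share minus MITE/DTA −0.0673, median gap minus DTM −904 bp and minus MITE/DTA 130 bp, and the same-strand departure −0.0460. The overlap filter left out copies of MITE/DTM only. The next 4 settings were chosen after seeing the data. Without TE_00001054, start was 0.20, end 0.92, start minus DTM 0.74, median gap minus DTM −732 bp and minus MITE/DTA 302 bp. Without the 3 largest families, start was 0.61, end 1.31, start minus DTM 1.15, start minus MITE/DTA −0.74, end minus MITE/DTA 0.34, start against end −0.70 (exact permutation, adjusted p = 0.0614), intron share minus DTM 4.03, median gap minus DTM −1045 bp and minus MITE/DTA −11.2 bp, and the same-strand departure −1.21. Without TE_00000794, intron share minus DTM was −0.703 and minus MITE/DTA −1.92. With copies of at most 600 bp, end minus DTM was 0.30, exon share minus DTM −2.36 and median length minus DTM −5.94 bp.

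With 1 chromosome left out, end lay between 0.27 and 0.50, end minus DTM between 0.53 and 0.76, start against end between −0.90 and −0.62, exon share minus MITE/DTA between −0.00769 and 0.785 and minus other elements between −0.309 and 0.478, intron share minus MITE/DTA between −0.766 and 0.696, median gap minus DTM between −64.6 and 178 bp, and the same-strand departure between −1.07 and 1.86. The calls for end minus DTM and for start against end were lost in 7 of the 8 cases each, and end passed without chromosome 6. The cause of these changes was not tested. With homology-based copies only, the length difference between the 2 kinds of copy could not be had.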

Other observations

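Outside the autosomes, the male sex chromosome V had 150 MITE/DTM copies, 19.9 per Mb, of which 6 were structure-based, and unplaced sequences had 7. Of the copies on V, 73 were TE_00001054 and 40 TE_00000944. The family TE_00000908, whose 29 autosomal copies had a commonest length of 83 bp and a median gap of 15149 bp, had a further 13 copies on V, and none of its autosomal copies lay within 1 kb of a gene. Only 1 of its 29 copies overlapped or abutted another superfamily. Along the autosomes, 10 equal stretches of each chromosome, summed over the 8, held between 7.73% and 12.3% of the copies.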
